A study of Homo sapiens with 8 samples.

Results

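Polysomal RNA was compared with total RNA in fibroblasts carrying a hairpin against EIF4G2, over the 15331 of 59385 gene symbols that held at least 10 counts in 2 or more of the 4 knockdown libraries. The comparison set polysome replicates 1 and 2 of the eIF4G2 shRNA cells against total RNA replicates 1 and 2 of the same line, fitted on these 4 libraries alone. The cells were IHCF, an immortalized line of human cardiac fibroblasts, infected with a lentivirus that expressed the eIF4G2 shRNA. Serum was withheld for 6 h or longer, after which TGF-beta was present for 24 h. A second set of 4 libraries, 2 polysomal and 2 total, came from cells with a scramble shRNA under the same starvation and TGF-beta, and is used only where stated. All groups therefore share the immortalization, the lentivirus and the cytokine. Each result describes presence in polysomal relative to total RNA under TGF-beta, with no untreated cells beside it. The labels name 1 hairpin against EIF4G2 and no rescue, so other effects of the hairpin cannot be told apart from the loss of EIF4G2. They call the 2 libraries of a group biological replicates but do not tie them to separate cultures; p-values therefore rest on library-to-library spread alone, part or all of which may be technical. The series' design text speaks of triplicates, and 2 libraries per group were analysed here. How polysomes were isolated, and from how many ribosomes upward, was not given in the sources used here.

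A polysome is an mRNA that carries several ribosomes at once, and it is separated from single ribosomes and free mRNA by its weight. The ratio of an mRNA's share in polysomal RNA to its share in total RNA is used as a measure of how much of it sits on many ribosomes. It is relative to other mRNAs, and RNA that co-purifies with polysomes in other ways enters it too. mRNAs of the translation machinery begin with a run of pyrimidines at the cap, the TOP motif (5′ terminal oligopyrimidine), through which growth signals move them on and off polysomes. EIF4G2 (DAP5) resembles the scaffold protein EIF4G1 but lacks the part that binds the cap-binding protein, and recruits ribosomes to a subset of mRNAs. In fibroblasts given TGF-beta, the genes of interest are those of matrix, contraction and TGF-beta signalling.

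The 4 libraries held 18043714 to 23299332 counts. Any count was found for 16204 and 17022 gene symbols in polysome replicates 1 and 2. In total replicates 1 and 2 it was found for 23484 and 23705. The leading principal component took 85.3% of their variance and separated the fractions, and the following one (12.7%) separated the polysome libraries from each other. Pearson's r of log2 CPM (counts per library size, scaled to be comparable) across genes was 0.957 between the polysome and 0.988 between the total replicates, and the biological coefficient of variation was 0.271 and 0.151. EIF4G2 (chromosome 11, 10797050 to 10809110, minus strand, GRCh38) was lower in the knockdown libraries: with all 8 libraries on 1 scaling it stood at 293 and 328 CPM in knockdown and 796 and 788 CPM in scramble total RNA, 39.3% of the scramble level (edgeR adjusted p = 0.0529). In polysomal RNA 33.0% was left (edgeR adjusted p = 0.0288). Of 11 fibroblast markers, 10 passed the filter, with a summed level of 6918 to 7210 CPM in total and 6432 to 7009 CPM in polysome libraries. Of these 10, VIM and LUM were called higher in polysomes and 6 lower. Cardiomyocyte markers summed to 1.36 to 1.53 CPM in total and 3.12 to 10.6 CPM in polysome libraries, with MYH6, MYH7, MYBPC3 and RYR2 at 0 in all 4. The sums were 21.2 to 23.7 and 28.6 to 35.5 CPM for endothelial markers, and 2.51 to 2.86 and 4.27 to 7.70 CPM for leukocyte markers, total before polysomal. Mural markers summed to 379 to 447 CPM in total and 74.1 to 91.8 CPM in polysome libraries (3 of 4 tested called lower), and epithelial markers, nearly all KRT8 and KRT18, to 1180 to 1408 and 2117 to 2203 CPM. From the level of a marker in bulk RNA, fewer cells of a type and less RNA per cell cannot be told apart. The total and polysomal sums compare fractions of the same line and do not measure cell numbers.

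Of the 15331 genes, 4151 were called higher (27.1%) and 5300 lower (34.6%) in polysomal than in total RNA, by edgeR's quasi-likelihood test at an adjusted p under 0.05. The difference passed 4-fold for 1160 of the higher and 2588 of the lower calls, and 8-fold for 330 and 1443. Both polysome libraries lay above both total libraries for 5563 genes and below them for 7123. A gene at or near 0 in one fraction could pass the filter only through the other. Through total RNA alone passed 2739 genes, with at least 10 counts in both total but not in both polysome libraries. Of these, 1323 were called lower and 1 higher. In the same sense 326 passed through polysomal RNA alone, of which 257 were called higher and 0 lower. No count in either polysome library was found for 620 genes. Among the 12026 genes with 10 counts in both libraries of both fractions, 3886 were higher and 3977 lower. Just inside the filter 230 genes had 10 counts in their second-highest library, and just outside it 282 had 9. All directions are relative to TMM scaling, whose factors were 0.744 and 0.675 in polysome and 1.39 and 1.44 in total libraries. With library totals alone the median fold change of all genes was −1.20 in place of −0.21 on the log2 scale, 1588 genes were called higher and 8590 lower, and the higher share of the calls was 15.6% in place of 43.9%. The median fell by 0.99 between the scalings, and 97 genes called higher with TMM were called lower with library totals. Leaving out total replicate 2 moved the median to −0.03. The filter was then applied again to the libraries left, and 13545 genes were tested in place of 15331.

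**Figure D1:**
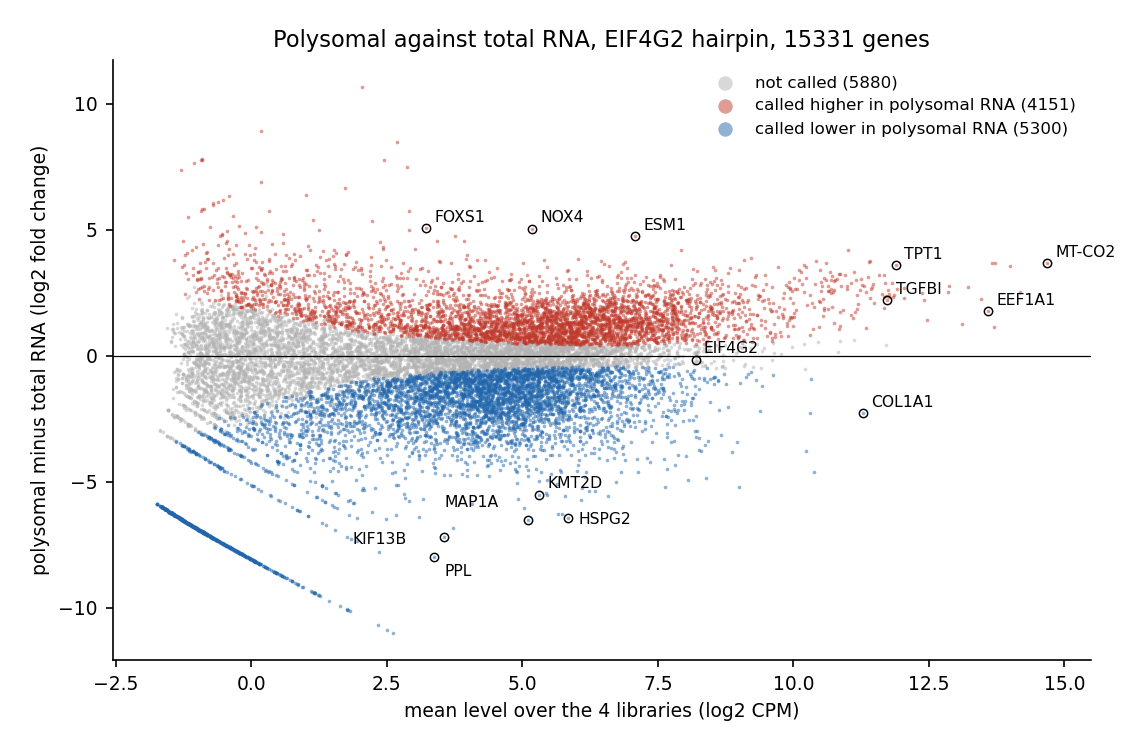
Each point is a gene, with its mean level over the 4 knockdown libraries (log2 CPM) across and its log2 fold change, polysomal minus total RNA, upward; colours mark calls at an adjusted p under 0.05 (edgeR). FOXS1, NOX4 and ESM1 stand highest among well-measured coding genes and PPL and KIF13B lowest, and the lines of points at the lower left are genes with 0 or few polysomal counts, whose fitted values depend on the added prior count.

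The largest positive fold changes among coding genes with a mean log2 CPM of at least 3 were those of FOXS1 and NOX4. FOXS1, a forkhead transcription factor (chromosome 20, 31844301 to 31845619, minus strand), stood at 16.9 and 20.8 CPM in polysome replicates 1 and 2 and at 0.650 and 0.466 CPM in total replicates 1 and 2. That was a log2 fold change of 5.06 ± 0.36 (SE; adjusted p = 5.23e-06), or 33.3-fold. NOX4, the NADPH oxidase that makes hydrogen peroxide and is a known TGF-beta target in fibroblasts (chromosome 11, 89324356 to 89498187, minus strand), had 77.96 and 63.4 CPM in polysomal and 2.66 and 1.63 CPM in total RNA (5.03 ± 0.28, 32.8-fold, adjusted p = 2.68e-06). For both genes the polysome libraries lay far above the total ones, and the pair within each fraction differed by less than 2-fold. ESM1, the secreted proteoglycan endocan, had 271 and 250.3 CPM against 10.3 and 9.31 CPM (26.5-fold). For all 3 genes both polysome libraries lay above both total libraries.

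ID1, an inhibitor of bHLH transcription factors induced by BMP and TGF-beta, was also among the 10 largest, with 134 and 109.8 CPM in polysomal and 10.3 and 6.85 CPM in total RNA (14.2-fold). NPW, which encodes neuropeptide W, was 13.9-fold higher and APOC1, a small apolipoprotein, 13.6-fold higher. The 10 largest also included the ribosomal protein mRNAs RPS29 (14.8-fold), RPS15A (13.9-fold) and RPS20 (13.6-fold). RPS29 varied most, with 728 and 1512 CPM in the polysome and 104 and 47.2 CPM in the total libraries, and its log2 fold change of 3.89 was 3.29 without polysome replicate 2 and 4.497 without total replicate 1.

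The largest negative fold changes among the same coding genes were those of PPL, KIF13B and MAP1A. PPL encodes periplakin, a plakin that links intermediate filaments to the cell cortex (chromosome 16, 4882507 to 4960741, minus strand). It had 535 and 682 counts in the total libraries and 2 and 0 in the polysome libraries, so that its level was 272 times lower in polysomes, with a 95% counting interval from 75.2 to 2251 times. KIF13B, a kinesin motor, had 636 and 747 counts in total and 0 and 4 in polysomal RNA, 155 times lower (60.3 to 569 times). MAP1A, a microtubule-associated protein (chromosome 15, 43510958 to 43531620, plus strand), had 1747 and 2376 counts in total and 9 and 11 in polysomal RNA, 92.2 times lower (59.6 to 151 times). These intervals cover counting error only. All 3 passed the filter through total RNA alone, and all 3 were called (adjusted p = 6.25e-06, 9.99e-06 and 2.68e-06). The fitted log2 fold changes, −8.00, −7.21 and −6.52, depend on the prior count at so few polysomal counts: without polysome replicate 1 and 2 in turn, PPL gave −11.93 and −7.19 and KIF13B −6.04 and −12.17.

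The other 7 had more polysomal counts, from 15 over both libraries for MYO18A upward. HSPG2, the basement membrane proteoglycan perlecan, had 1.14 and 1.48 CPM in polysomal and 70.6 and 154 CPM in total RNA (−6.43 ± 0.43, adjusted p = 4.51e-06; −5.82 without total replicate 2). DCHS1, a giant protocadherin, had 1.59 and 0.986 CPM against 77.2 and 129.7 CPM (78.3-fold lower). SOGA1 was 77.2-fold, HELZ2, a large helicase, 66.5-fold, and TNRC18 52.5-fold lower. MYO18A, an unconventional myosin, was 59.7-fold lower, and its log2 fold change of −5.90 was −6.57 without polysome replicate 1. GIGYF1, a protein that binds the cap-binding repressor EIF4E2, was 51.2-fold lower. The coding sequences of these 10 genes ran from 3048 nt for SOGA1 to 13173 nt for HSPG2. In each of the 10 genes both polysome libraries lay below both total libraries.

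**Figure D2:**
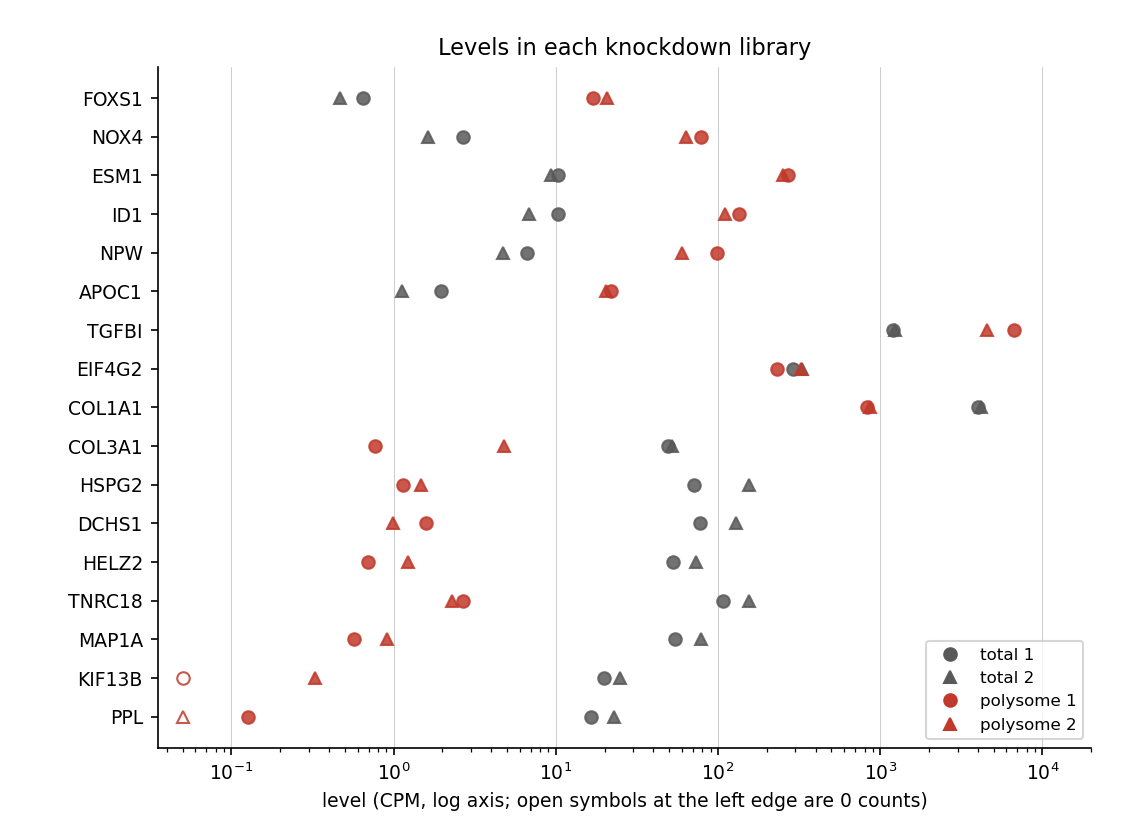
Levels of 17 genes in each of the 4 knockdown libraries, in CPM on a log axis; red marks polysomal and grey total RNA, circles replicate 1 and triangles replicate 2, and open symbols at the left edge stand for 0 counts. The fractions are separated for every gene shown except EIF4G2, whose polysomal values of 229.8 and 324 CPM overlap the total values of 289 and 330.2 CPM.

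EIF4G2 mRNA itself did not differ between the fractions beyond the spread of the libraries. It stood at 229.8 and 324 CPM in polysomal and 289 and 330.2 CPM in total RNA of the knockdown cells (−0.16 ± 0.21, adjusted p = 0.531), and the fractions overlapped. With library totals alone the value was −1.17 (adjusted p = 0.000811), close to the shift of all genes under that scaling, and without polysome replicate 1 it was 0.09.

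Across all coding genes, the ratio of polysomal to total RNA fell with the length of the coding sequence. The 12606 coding genes with an annotated coding sequence were divided into 10 classes of about equal size by the length of their principal transcript (GENCODE 29). In the shortest class, 72 to 540 nt, 904 of 1265 genes were called higher and 82 lower, and the median log2 fold change was 1.48. In the fifth class, 1185 to 1404 nt, 324 genes were higher and 346 lower, with a median of −0.03. In the longest class, from 3531 nt, 18 of 1261 were higher and 1046 lower, with a median of −2.17. The medians of the 10 classes fell at every step, in polysome replicate 1 from 1.35 to −2.09 and in replicate 2 from 1.59 to −2.24, each against the mean of the total libraries. The middle 50% of genes ran from 0.67 to 2.14 in the shortest and from −3.08 to −1.43 in the longest class, so that these ranges did not overlap.

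The counts themselves showed the same difference. The coding gene at the middle of the library's counts had a coding sequence of 771 to 792 nt in the polysome and of 1251 to 1365 nt in the total libraries. Across genes, which are not independent replicates, Spearman's rho between the log2 fold change and coding length was −0.595 over the 12606 genes, and −0.651 over the 10920 with 10 counts in all 4 libraries. It was −0.595 with each gene's longest annotated coding sequence and −0.57 with transcript length. It was −0.287 for the length of the 3′ UTR, −0.056 for the 5′ UTR, −0.036 for GC content and 0.286 for the mean level. An mRNA with a longer coding sequence has room for more ribosomes. In these libraries the long mRNAs held the smaller share of polysomal RNA. Recovery and integrity of long mRNAs in the polysomal fraction were not tested. They cannot be told apart here from the number of ribosomes carried.

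**Figure D3:**
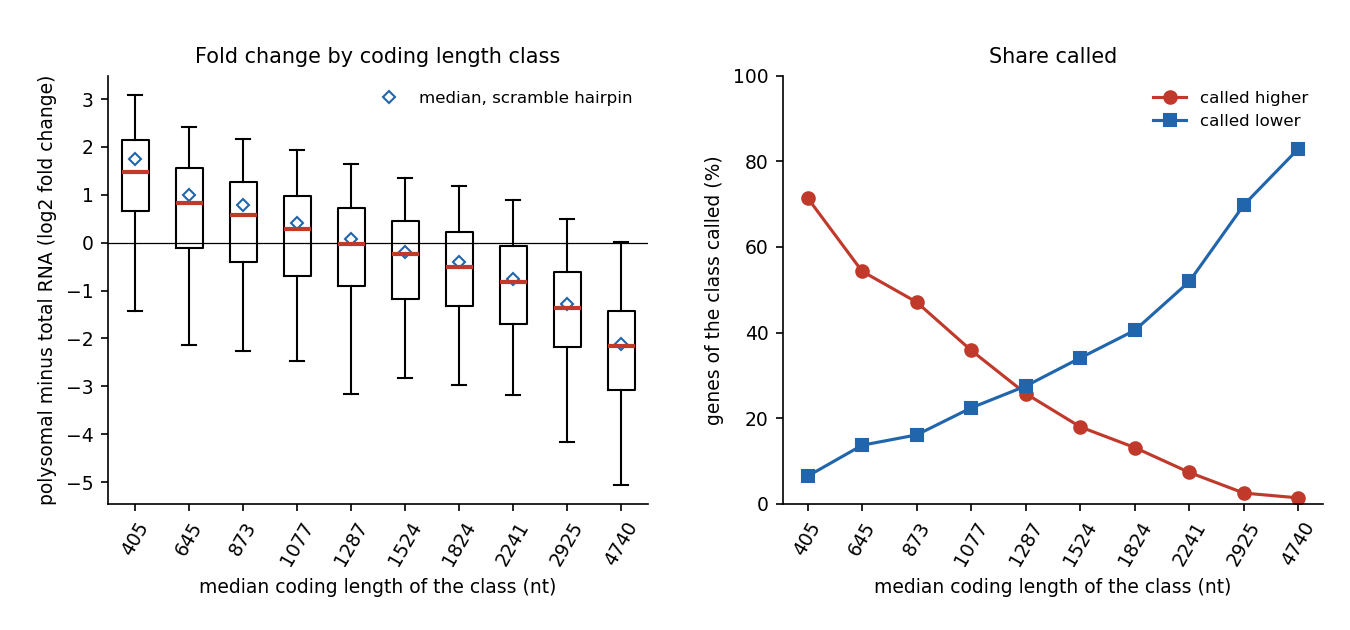
Left, log2 fold change of polysomal against total RNA in 10 classes of coding length, labelled by their median length in nt; boxes show the quartiles, red lines the medians, whiskers the 5th and 95th percentiles, and blue diamonds the medians of the same genes in scramble cells. Right, the share of each class called higher or lower: the median falls from 1.48 to −2.17 and the share called lower rises from 6.48% to 83.0%.

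Because gene groups differ in coding length, each list of coding genes below is given with its median after the trend on coding length was removed from every library, an alternative added after the data were seen. That correction left 3716 higher and 3263 lower calls among the 12606 coding genes. The members of all lists were tested with all other genes, and a list is described by its counts and its median beside those of all tested genes (27.1% higher, 34.6% lower, median −0.21).

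Nearly all mRNAs of the cytosolic ribosome were higher in polysomal RNA. Of 85 ribosomal protein genes 83 were tested, 81 were higher and 1 lower, with a median log2 fold change of 2.75 (2.64 in polysome replicate 1 and 2.87 in replicate 2). They took 16.2 and 16.7% of all counts in the polysome libraries and 5.71 and 4.34% in the total libraries. RPS2, the most abundant of them, had 7991 and 10079.8 CPM in polysomal and 1807 and 1429 CPM in total RNA (2.48 ± 0.29, adjusted p = 5.18e-05), and RPL13 had 6588 and 6746 CPM against 1201 and 915 CPM (2.66 ± 0.27, adjusted p = 2.68e-05). The lower one was RPL36A (−1.28), the uncalled one was RPL3L (1.12), the muscle form of RPL3, and the other 2 did not pass the filter; RPL36A and RPL3L were picked out after their values were seen. RPL36A was not called without total replicate 1 (−1.25) or 2 (−1.42), and RPL3L was called without polysome replicate 1 (1.73). RPL17 had the smallest positive value of the well-measured members (0.51, adjusted p = 0.0393), was not called without total replicate 1 (0.49) or 2 (0.42) and reached −0.48 with library totals alone. Near-identical copies make single members uncertain: 107 ribosomal protein pseudogenes were tested and 94 of them were higher too (median 2.72). Of the 107, 33 passed the filter through polysomal RNA alone and 5 through total RNA alone. The filter thus favoured higher calls among them. The median coding length of the ribosomal protein list was 444 nt, and with the length trend removed 75 were higher and 3 lower, with a median of 1.62.

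Start-site sequences are shown for members of this group because the TOP motif lies at the first transcribed bases. The windows are 30 bases of the RefSeq promoter table (GRCh38.p14), 10 before the annotated start of transcription and 20 from it onward, on the gene's strand. Capitals mark the strings CTTTC and CTTTT and the related CTCTT.
RPS21: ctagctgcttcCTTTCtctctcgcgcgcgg
RPS27: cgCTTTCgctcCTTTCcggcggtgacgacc
RPL38: aagtctcgttCTTTTtcgtcCTTTTccccg
TPT1: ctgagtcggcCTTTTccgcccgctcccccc
EEF1A1: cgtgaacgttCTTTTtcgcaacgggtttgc
RPS29: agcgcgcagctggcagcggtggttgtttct
NOX4: tcgggcttccactcagtctttgaccctcgg
MAP1A: tgcctgcagcggaagctgccggactaacac
The windows lie at chr20:62387093-62387122 (plus strand) for RPS21, chr1:153990752-153990781 (plus) for RPS27, chr17:74203668-74203697 (plus) for RPL38, chr13:45341164-45341193 (minus) for TPT1 and chr6:73521013-73521042 (minus) for EEF1A1. Those of RPS29, NOX4 and MAP1A, shown for contrast, lie at chr14:49598691-49598720 (minus), chr11:89491356-89491385 (minus) and chr15:43510944-43510973 (plus). At least 1 of the 3 motifs stood in the window of 47 of 67 ribosomal protein genes with an entry (70.1%), of 14 of 19 other TOP genes (73.7%) and of 10.4% of 27305 promoters in the table. Counted on either strand the shares were 71.6, 73.7 and 17.8%. Among the other tested coding genes, the 892 with a motif had a median log2 fold change of −0.14 and the 9228 without one −0.27. The single motifs stood in 44.8% (CTTTC), 22.4% (CTTTT) and 34.3% (CTCTT) of the ribosomal protein windows, against 4.07, 3.56 and 4.15% of all. The other strings searched were CTTCC (37.3 against 7.07%), TCTTTC (19.4 against 1.27%), CTTTTC (14.9 against 1.25%), CTTTCC (23.9 against 1.45%) and CTCTTTC (14.9 against 0.524%), and several of the 8 strings contain one another. A match describes the letters of the window, wherever in it they stand. Of the 30 bases 10 lie before the annotated start, so a capitalised string need not be a TOP motif at the cap.

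Other TOP mRNAs encode elongation factors, initiation factors and binding proteins. Of 24 tested, 16 were higher and 3 lower (median 1.82, coding length 1096 nt; 1.47 with the length trend removed). EEF1A1, the factor that brings tRNAs to the ribosome, had 21669.8 and 16542 CPM in polysomal and 6155 and 5072 CPM in total RNA (1.77 ± 0.30, adjusted p = 0.000612). TPT1, a growth-related protein with one of the classical TOP mRNAs, had 6323 and 7681 CPM against 661 and 490.5 CPM (12.2-fold). The 3 lower ones were PABPC1 (−2.05), the poly(A) binding protein, IPO7 (−1.17) and EIF4B (−0.54). PABPC1 had 205 and 141 CPM in polysomal and 691 and 737 CPM in total RNA, with no overlap of the fractions (adjusted p = 4.98e-05). EEF2, the translocation factor, was not called (0.61). IPO7, EIF4B and EEF2 were chosen after their values were seen. EIF4B was not called without polysome replicate 2 (−0.29) or total replicate 1 (−0.58), and EEF2 was called without polysome replicate 2 (0.97).

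Initiation factors were divided. Of 33 tested, 17 were higher and 8 lower, and their median of 0.44 became −0.56 with library totals alone and 0.22 with the length trend removed. EIF1, which guards start-codon selection, had 2978 and 3039 CPM in polysomal and 381 and 295 CPM in total RNA (3.15 ± 0.26, adjusted p = 9.45e-06). EIF5A, the hypusine-bearing elongation factor, was 2.24-fold higher (−0.05 with the length trend removed). EIF3A, the largest subunit of eIF3, had 13.5 and 17.3 CPM against 231 and 291 CPM and was 16.97-fold lower (adjusted p = 2.68e-06). The eIF4F group with its relatives held 3 higher and 4 lower of 11, and the eIF1 to eIF3 and eIF5 group 14 higher and 4 lower of 22.

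Mitochondrial mRNAs were higher as well, both those made inside mitochondria and those imported as proteins. Mitochondrially encoded mRNAs are translated by the ribosomes of the organelle and not by cytosolic polysomes. How they came into the polysomal fraction was not tested. Of the 13 tested, 11 were higher and 0 lower (median 2.54; 2.39 with the length trend removed), and they took 12.7 and 14.1% of counts in the polysome libraries against 3.60 and 3.58% in the total libraries. MT-CO2, a subunit of cytochrome oxidase, had 48166 and 48716 CPM in polysomal and 4272 and 3396 CPM in total RNA (3.66 ± 0.34, adjusted p = 1.51e-05). MT-CO1 was 5.82-fold and MT-ATP6, a subunit of ATP synthase, 12.8-fold higher. The 2 not called were MT-ND5 (0.59) and MT-ND4L, which stood at 518 and 639.5 CPM in polysomal and 308 and 600.1 CPM in total RNA. For MT-ND4L the fractions overlapped; its value of 0.35 was 0.85 and called without total replicate 2 and −0.12 without total replicate 1. MT-ND5 was chosen after its value was seen and was called without total replicate 2 (0.74).

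Among nuclear-encoded subunits of oxidative phosphorylation, 67 of 75 tested were higher and 1 lower (median 2.05, coding length 423 nt). The median was 1.99 for complex I, 1.56 for complexes II and III, 2.56 for complex IV and 2.18 for ATP synthase. COX7B, a small subunit of cytochrome oxidase, was highest, with 618 and 755 CPM against 76.7 and 52.6 CPM (3.41 ± 0.25, adjusted p = 6.63e-06). COX4I1, of the same complex, was 5.23-fold higher. ATP5F1B, the catalytic subunit of ATP synthase, had 861 and 989 CPM against 693 and 623 CPM and was not called (0.49 ± 0.21, adjusted p = 0.0684). The lower one was NDUFS1 (−0.70), the largest subunit of complex I, with a coding sequence of 2181 nt, whose value was 0.14 with the length trend removed. After that removal 54 members were higher and 1 lower, with a median of 0.76.

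Proteins of the mitochondrial ribosome followed the same direction, with 66 of 74 higher and 1 lower (median 1.52; 0.54 with the length trend removed). MRPL14 was 5.72-fold and MRPL37 3.48-fold higher; the lower one, MRPL38 (−2.76), had 1 and 14 polysomal counts and was chosen after its value was seen: it gave −1.74 without polysome replicate 1, −5.82 without polysome replicate 2, and was not called without total replicate 1. Of 24 genes of mitochondrial import, 19 were higher and 3 lower (median 1.30). With the length trend removed 11 were higher and 2 lower (median 0.38). HSPD1, the mitochondrial chaperonin, was among the lower ones, with 280.1 and 266 CPM against 639 and 551 CPM (−1.12, adjusted p = 0.000766).

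**Figure D4:**
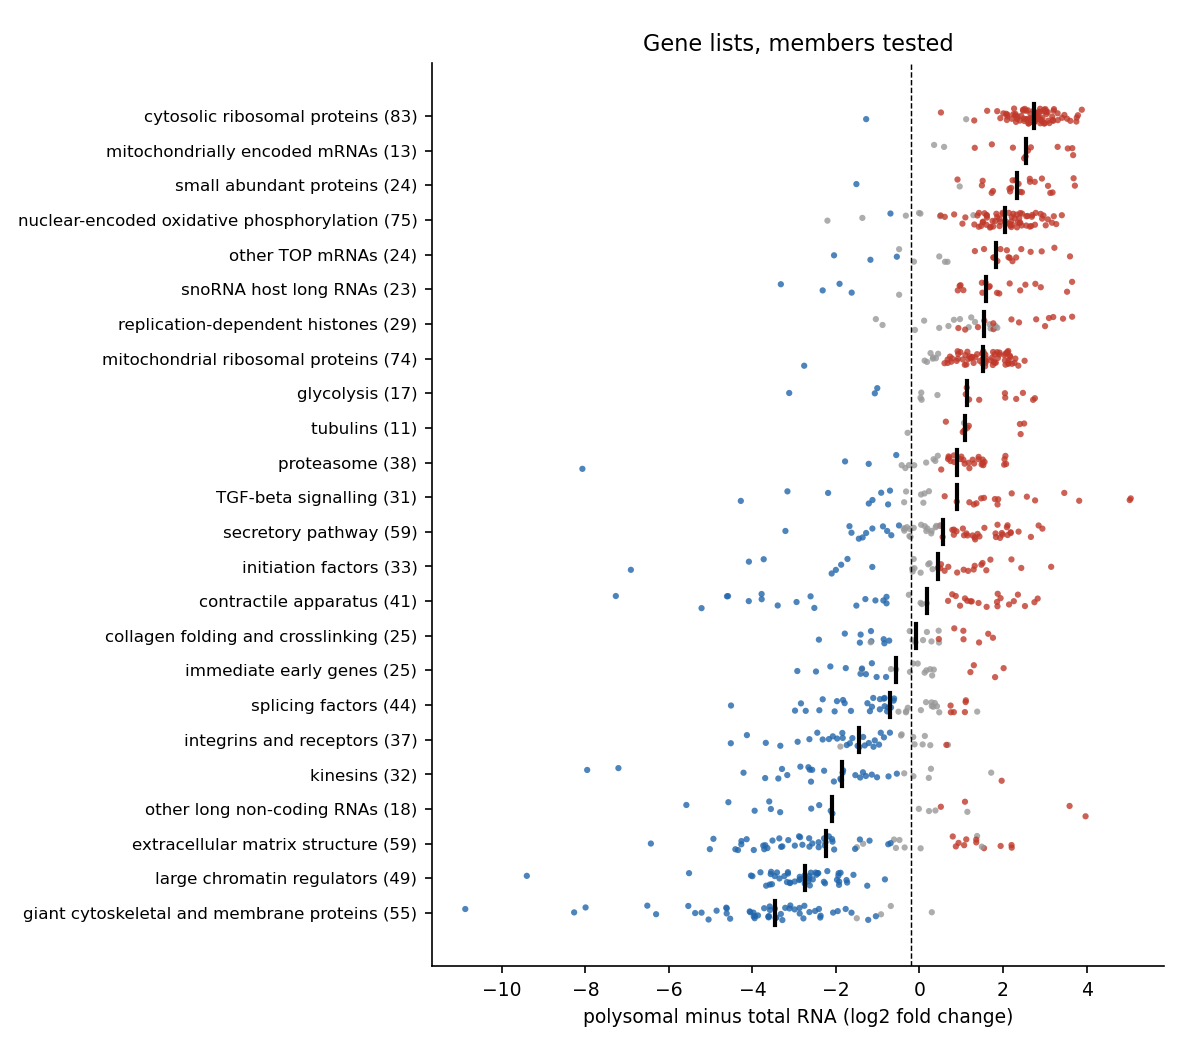
Log2 fold change of polysomal against total RNA for the tested members of 24 gene lists, ordered by their median (black bar); red and blue points were called higher and lower, grey points were not called, and the dashed line marks the median of all tested genes, −0.21. Ribosomal protein and mitochondrially encoded mRNAs lie at the top with medians of 2.75 and 2.54, and large chromatin regulators and giant proteins at the bottom with −2.75 and −3.46.

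Genes of the extracellular matrix, the product of an activated fibroblast, were mostly lower in polysomal RNA. Of 59 tested, 39 were lower and 11 higher (median −2.25), and 11 of the 59 passed the filter through total RNA alone. All 7 fibrillar collagens were lower (median −2.99), as were 11 of 13 other collagens (−3.31) and 18 of 26 glycoproteins and elastic fibre proteins (−2.13). COL1A1, a fibrillar collagen chain and the most abundant of the group in total RNA, had 833 and 869 CPM in polysomal and 3995 and 4209 CPM in total RNA (−2.27 ± 0.24, 4.82-fold lower, adjusted p = 3.33e-05), and the fractions did not overlap. COL3A1, of type III collagen, had 0.763 and 4.77 CPM against 49.3 and 51.99 CPM; its log2 fold change of −4.26 was −3.39 without polysome replicate 1 and −6.02 without polysome replicate 2. Proteoglycans and matricellular proteins were divided: 6 of 13 were higher and 3 lower (median 0.80). TGFBI, a matrix protein named for its induction by TGF-beta, had 6637 and 4565 CPM against 1198 and 1226 CPM (2.21 ± 0.28, 4.62-fold higher, adjusted p = 9.06e-05). With the length trend removed, 16 of the 59 were higher and 20 lower (median −0.30), and COL1A1 was no longer called (−0.30, adjusted p = 0.162).

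Enzymes and chaperones that fold and crosslink collagen were divided, with 7 of 25 higher and 9 lower (median −0.10, and 0.47 with the length trend removed). LOX, the lysyl oxidase that crosslinks collagen and elastin, had 209 and 193 CPM against 55.8 and 62.96 CPM (3.39-fold higher). TGM2, a transglutaminase, had 64.3 and 62.4 CPM against 314 and 359 CPM (5.31-fold lower). SERPINH1, the collagen chaperone HSP47, was not called, with 712 and 762 CPM in polysomal and 870.2 and 784 CPM in total RNA (−0.17, adjusted p = 0.509), and P4HB, a subunit of prolyl hydroxylase, was not called either (0.18).

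The contractile apparatus was divided. Of 23 genes of actin, tropomyosin and myosin, 15 were higher and 6 lower (median 1.14), and of 18 genes of crosslinkers and adhesion, 5 were higher and 11 lower (median −1.18). ACTB, cytoplasmic actin, had 17934 and 18761 CPM in polysomal and 8995 and 7607 CPM in total RNA (1.14 ± 0.28, adjusted p = 0.00583). ACTG1 was 2.38-fold higher; neither actin was called with library totals alone. MYL12B, a light chain of non-muscle myosin, was 7.11-fold higher. ACTA2, the smooth muscle actin that marks myofibroblasts, had 33.5 and 19.7 CPM against 6.41 and 4.72 CPM (4.79-fold higher), and TAGLN, its binding partner transgelin, was 6.74-fold higher; both were chosen after their values were seen. FLNC, a filamin that crosslinks actin filaments, had 8.65 and 12.2 CPM against 335 and 439 CPM (37.2-fold lower, adjusted p = 2.68e-06). MYH9, the heavy chain of the same non-muscle myosin, was 24.4-fold lower and was also chosen after its value was seen. The median of all 41 was 0.17, and it was 0.36 with the length trend removed, −0.83 with library totals alone and −0.00 without polysome replicate 2.

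In TGF-beta signalling, nearly all of the induced targets chosen for the list were higher and the signalling proteins were divided. Of 14 tested targets, 13 were higher and 0 lower (median 2.05; 1.82 with the length trend removed, when 12 were higher and 1 lower). FOXS1, NOX4 and ID1, described above, are members of this list, which was written with their values known. The 7 fibrillar collagens, all called lower, are counted in the matrix list and not among these targets. IL11, a cytokine that fibroblasts secrete after TGF-beta, had 42.4 and 43.6 CPM in polysomal and 3.78 and 3.99 CPM in total RNA (11.1-fold higher), and TSC22D1 was not called (0.12); these 2 were chosen after their values were seen. Of 17 ligands, receptors and SMADs, 4 were higher and 8 lower (median −0.37). SKI, a corepressor of SMADs, had 10.5 and 11.5 CPM against 92.9 and 104 CPM (8.95-fold lower, adjusted p = 3.52e-06). TGFB1, the ligand itself, was 2.78-fold higher, and its receptors TGFBR1 and TGFBR2 were 2.32-fold and 2.18-fold lower; these 3 were chosen after their values were seen. Over all 31 genes the median was 0.89, 0.82 with the length trend removed and −0.10 with library totals alone, and the lower calls were 5 in place of 8 without total replicate 2.

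Large regulators of chromatin were called lower without exception among those tested: 49 of 49 (median −2.75; −2.65 and −2.88 in polysome replicates 1 and 2). Their median coding length was 6219 nt, and with the length trend removed 6 were higher and 17 lower (median −0.27). DNMT1, the maintenance DNA methyltransferase, had 30.8 and 43.7 CPM in polysomal and 209 and 250.1 CPM in total RNA (−2.63 ± 0.22, adjusted p = 1.06e-05). KMT2D, a histone H3 lysine methyltransferase with a coding sequence of 16611 nt, had 1.34 and 2.05 CPM against 54.1 and 98.98 CPM (45.8-fold lower). The smallest difference was that of CHD9, a chromatin remodeler (−0.83, adjusted p = 0.0122), which was not called without total replicate 2 (−0.56) and stood at 2.105 with the length trend removed.

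Giant proteins of the cytoskeleton, the membrane and ubiquitin ligation were lower in 51 of 55 cases and higher in 0 (median −3.46, coding length 11403 nt). Of the 55, 8 passed the filter through total RNA alone. The members not called were ANK2, ANK3, DMD and FAT3. PLEC, the crosslinker plectin, had 21.8 and 23.00 CPM in polysomal and 539 and 761 CPM in total RNA (−4.86 ± 0.26, adjusted p = 2.68e-06). With the length trend removed 12 of the 55 were higher and 17 lower, with a median of −0.13, and PPL and MAP1A kept values of −5.83 and −3.64. Kinesins, the motors that walk along microtubules, were lower for 26 of 32 and higher for 1. Their median was −1.86, and −0.07 with the length trend removed, and 6 of the 32 passed the filter through total RNA alone. KIF1C had 126 and 90.7 CPM against 274 and 280.4 CPM (−1.35) and KIF5B 72.1 and 82.7 CPM against 183 and 231 CPM (−1.42), so that KIF13B with −7.21 lay far below the abundant members. The higher one was KIF9 (1.97), chosen after its value was seen. Tubulins, which form the tracks, were higher for 9 of 11 and lower for 0 (median 1.08, and 1.21 with the length trend removed). TUBA1A had 3159 and 2611 CPM in polysomal and 562 and 454 CPM in total RNA (5.68-fold higher), and TUBA1B was 2.21-fold higher (not called with library totals alone).

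Integrins and growth factor receptors were lower for 27 of 37 and higher for 1, with a median of −1.44 that was 0.23 with the length trend removed. Of the 37, 4 passed the filter through total RNA alone. The most abundant members were not called: AXL, a receptor tyrosine kinase, had 442 and 589.7 CPM against 658 and 745 CPM (−0.44, adjusted p = 0.11), and ITGB1, the integrin beta-1 chain, 517 and 411 CPM against 563 and 685 CPM (−0.43, adjusted p = 0.115). For both genes the polysome libraries lay below the total libraries without passing the threshold. Both were called lower with library totals alone (−1.45 for AXL and −1.41 for ITGB1) and with no filter (−0.56 and −0.54), AXL also with 10 counts in all 4 libraries (−0.51) and ITGB1 without total replicate 1 (−0.62). With the length trend removed both were called higher (0.76 and 0.57). The higher one was FZD2 (0.64), a Wnt receptor, chosen after its value was seen and not called without total replicate 2 (0.57).

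Secretory pathway genes were divided, with 31 of 59 higher and 11 lower (median 0.55, 0.54 with the length trend removed and −0.45 with library totals alone). Translocon and signal peptidase subunits, which bring new proteins into the endoplasmic reticulum, were higher for 20 of 31 and lower for 1 (median 1.27), and vesicle coat and cargo genes for 11 and 10 of 28 (median 0.26). SSR3, a subunit of the translocon-associated complex, had 1267 and 1392 CPM against 484 and 421 CPM (2.94-fold higher), and SSR4, another subunit, was 7.69-fold higher. Of the proteasome, 26 of 38 genes were higher and 4 lower (median 0.91, 0.71 with the length trend removed and −0.09 with library totals alone). PSMB4 of the core particle had 768 and 887 CPM against 220.2 and 173 CPM (4.21-fold higher), and PSME4, a large activator with a coding sequence of 5529 nt, was 3.44-fold lower and stood at 0.52 with the length trend removed.

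mRNAs of small abundant proteins and of glycolytic enzymes were mostly higher. Of 24 tested mRNAs of small abundant proteins (thymosins, S100 proteins, ferritins and the like), 22 were higher and 1 lower (median 2.34; 0.82 with the length trend removed). TMSB4X, the actin-sequestering thymosin beta-4, had 8008 and 9878 CPM in polysomal and 2203 and 1703 CPM in total RNA (2.195 ± 0.28, adjusted p = 0.000106; −0.14 with the length trend removed). MT2A, a metallothionein that binds zinc and copper, was 13.2-fold higher. The lower one was DYNLL2, a dynein light chain (31.1 and 41.9 CPM against 109 and 98.5 CPM, −1.51), although its coding sequence has 267 nt. Glycolytic enzymes were higher for 10 of 17 and lower for 3 (median 1.13, and 1.14 with the length trend removed). GAPDH had 18064 and 15249.5 CPM against 2656 and 2399 CPM (2.72 ± 0.29, adjusted p = 3.32e-05), and ENO1, enolase, was 2.69-fold higher (not called with library totals alone). HK2, the hexokinase at the entry of the pathway, had 6.995 and 9.45 CPM against 66.4 and 75.8 CPM and was 8.69-fold lower.

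Upstream reading frames let stress and polyamines control translation. mRNAs listed for such frames or as polyamine pathway genes were higher for 11 of 24 and lower for 5. Their median was 0.35, 0.30 with the length trend removed, −0.64 with library totals alone and 0.21 without total replicate 2. ATF4, the transcription factor of the integrated stress response, had 1241 and 1318 CPM in polysomal and 335 and 272 CPM in total RNA (2.08 ± 0.23, adjusted p = 3.54e-05). OAZ1, the antizyme whose translation needs a frameshift, was 5.36-fold higher, and SLC7A1, a transporter of cationic amino acids, was 5.65-fold lower (−2.50). Immediate early genes, with short-lived mRNAs, were lower for 10 of 25 and higher for 4 (median −0.56, and −0.90 with the length trend removed). The median was −0.92 without polysome replicate 1 and −0.25 without polysome replicate 2. JUN had 32.8 and 38.6 CPM against 251 and 291 CPM (−2.93 ± 0.20, adjusted p = 4.4e-06) and its relative JUND 374 and 321 CPM against 113 and 85.5 CPM (1.81 ± 0.21, adjusted p = 4.69e-05). The 2 AP-1 subunits thus stood on opposite sides with coding sequences of 993 and 1041 nt. MCL1, a short-lived survival protein, was 2.43-fold lower.

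Splicing factors were lower for 25 of 44 and higher for 6 (median −0.71; −0.45 with the length trend removed). SRRM2, a large scaffold of nuclear speckles, had 17.8 and 16.2 CPM against 325 and 452 CPM (22.8-fold lower), and HNRNPA1, the most abundant member, was not called (0.47). Cell cycle genes were divided, with 11 of 34 higher and 14 lower (median −0.00; 0.15 with the length trend removed), and 7 were higher without total replicate 2. PCNA, the replication clamp, had 1122 and 1078 CPM against 232 and 189 CPM (5.22-fold higher), and MKI67, the proliferation antigen with a coding sequence of 9768 nt, had 10.4 and 18.4 CPM against 177 and 254 CPM (15.1-fold lower). Enzymes and regulators of sterol and fatty acid synthesis were higher for 14 of 27 and lower for 9 (median 0.56, 1.00 with the length trend removed, −0.47 with library totals alone and 0.33 without total replicate 1). INSIG1, which retains the sterol sensor in the endoplasmic reticulum, had 305 and 295 CPM against 43.5 and 43.6 CPM (6.89-fold higher), and LSS, lanosterol synthase, was 13.6-fold lower. Interferon effectors were higher for 7 and lower for 10 of 31 (median −0.53; −0.31 with the length trend removed). The lower ones were 17 without polysome replicate 1, with a median of −0.83, and 5 without either total replicate. ISG15, a ubiquitin-like modifier, was 4.60-fold higher and STAT2, a signal transducer, 11.1-fold lower.

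Antioxidant genes were higher for 5 and lower for 5 of 15 (median 0.11; −0.03 with the length trend removed), and 3 and 2 were lower without total replicate 1 and 2 in turn. PRDX1, a peroxiredoxin, had 917 and 1036 CPM against 353 and 282 CPM (3.07-fold higher) and TXNRD1, a thioredoxin reductase, 50.6 and 74.6 CPM against 213 and 235 CPM (3.59-fold lower). Selenoproteins, whose mRNAs decode UGA as selenocysteine, were higher for 12 of 19 and lower for 4 (median 0.75, 0.19 with the length trend removed and −0.26 with library totals alone), and GPX4, the phospholipid hydroperoxidase, was 6.92-fold higher. Of 29 replication-dependent histone genes, 14 were higher and 0 lower (median 1.55; 0.09 with the length trend removed); 9 were higher without total replicate 1 and 7 without total replicate 2. Their mRNAs mostly lack poly(A) tails and the libraries were made from poly(A) RNA, so these values describe the tailed forms captured. Of the 29 histone genes, 5 passed the filter through polysomal RNA alone and 4 through total RNA alone.

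Long non-coding RNAs were found in polysomal RNA to very different degrees. Among 864 annotated ones, 230 were higher and 164 lower (median 0.39). Of the 864, 316 passed the filter through total RNA alone and 61 through polysomal RNA alone, which favours calls in those directions. Host genes of small nucleolar RNAs, several of which also begin with a TOP motif, were higher for 18 of 23 and lower for 4 (median 1.58). GAS5 had 442 and 509 CPM in polysomal and 122 and 91.2 CPM in total RNA (2.16 ± 0.22, adjusted p = 2.24e-05), and ZFAS1 was 12.6-fold higher. SNHG14 was among the lower ones (−2.32). Nuclear long RNAs were lower for 7 of 10 and higher for 1 (median −3.08, highest value 3.98). Through total RNA alone 3 of the 10 passed the filter, and through polysomal RNA alone 1. MEG3 had 2.54 and 1.89 CPM against 89.9 and 126 CPM (47.9-fold lower). MALAT1 (−3.60) and NEAT1 (−3.95), which reside in nuclear speckles and paraspeckles, were chosen after their values were seen. Together with 8 partly cytoplasmic ones these 10 had a median of −2.10, which was −1.19 without total replicate 1 and −0.08 without total replicate 2, when 14 and 15 of the 18 were tested. Among cytoplasmic ones CYTOR had 322 and 473 CPM against 37.3 and 28.6 CPM (12.1-fold higher) and NORAD, which binds PUMILIO proteins, 46.4 and 33.9 CPM against 162 and 189 CPM (4.36-fold lower). Presence in this fraction is a measure of co-purification and does not by itself show that an RNA carries ribosomes.

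Some genes lay far from the median of their coding-length class, and were chosen after their values were seen. In the longest class, CAMTA1, a calmodulin-binding transcription activator with 5019 nt, had 105 and 131 CPM in polysomal and 36.4 and 24.5 CPM in total RNA (1.96 ± 0.23; class median −2.17). KCNMA1, the large-conductance potassium channel, had 368 and 403 CPM against 104 and 99.9 CPM (3.77-fold higher), and ITGAE, an integrin alpha chain, was 3.88-fold higher. In the shortest class, MAFG, a small MAF transcription factor with 486 nt, had 5.53 and 5.01 CPM against 38.3 and 43.6 CPM (−2.95 ± 0.23; class median 1.48). EDN2, a vasoconstrictor peptide, was 6.98-fold lower, and APLN, the peptide apelin, 6.12-fold lower. In each of these 6 genes the fractions did not overlap. The class of a gene rests on 1 annotated transcript, and where the expressed isoform is another one the class can be wrong.

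The same comparison in scramble cells called 4974 genes higher (32.4%) and 5430 lower (35.4%) of 15358 tested. Of 14782 genes tested with both hairpins, 3866 were higher and 4474 lower in both, and 3 were called in opposite directions. These 8340 genes were 88.2% of all knockdown calls and 80.2% of all scramble calls. The 2 fits share no library. The medians of the 10 coding-length classes ran from 1.76 to −2.12 in scramble cells and from 1.48 to −2.17 in knockdown cells. A direct test of the difference, the hairpin by fraction term over all 8 libraries, called 0 of 16355 genes (0%) with edgeR at an adjusted p under 0.05, and 1027 genes had an unadjusted p under 0.05. With DESeq2 there were 4 calls: CDIP1 (3.65), EME2 (−6.78), OSBPL5 (−2.16) and SPPL2B (−1.34), where a positive value means a larger polysome to total ratio in the knockdown cells, each with an edgeR adjusted p between 0.682 and 0.773. Without knockdown polysome replicate 2 edgeR called 1 gene, TRPM4 (−9.68).

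For the 5 genes given above as extremes, the scramble libraries showed the same directions. FOXS1 had 29.5 and 14.7 CPM in scramble polysomal and 0.511 and 0.800 CPM in scramble total RNA, and NOX4 42.6 and 41.9 CPM against 1.19 and 0.953 CPM. Their differences between hairpins were 0.05 ± 0.58 and −0.18 ± 0.36 on the log2 scale (adjusted p = 1 and 0.967). PPL had 1.61 and 1.83 CPM in scramble polysomal and 30.1 and 30.9 CPM in scramble total RNA, a log2 fold change of −4.14 where the knockdown cells gave −8.00. The difference was −3.78 ± 0.73 with an adjusted p of 0.773, and the knockdown side rests on 2 polysomal counts. MAP1A had 3.34 and 2.50 CPM against 92.9 and 88.01 CPM, and the difference was −1.49 ± 0.42 (adjusted p = 0.773). For KIF13B it was −2.32 ± 1.13 (adjusted p = 0.773). None of the 5 differences passed the threshold, which does not show that the hairpins act alike on these genes. For EIF4G2 mRNA the scramble log2 fold change was 0.16 beside −0.16 in knockdown cells.

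Medians of gene groups are given side by side for both hairpins. The median of the ribosomal protein list was 2.75 in knockdown and 2.88 in scramble cells, that of the chromatin regulators −2.75 and −2.62, and that of the giant proteins −3.46 and −3.18. The matrix list had −2.25 and −1.78, and COL1A1 −2.27 and −1.50, with a difference of −0.69 ± 0.26 (adjusted p = 0.773). The TGF-beta targets of the list had 2.05 and 2.52. The share of counts from mitochondrially encoded mRNAs differed between the scramble polysome libraries, 5.74 and 14.96%, so that the scramble median of that list, 2.25, rests on unlike libraries. No difference between the hairpins' medians was tested.

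**Figure D5:**
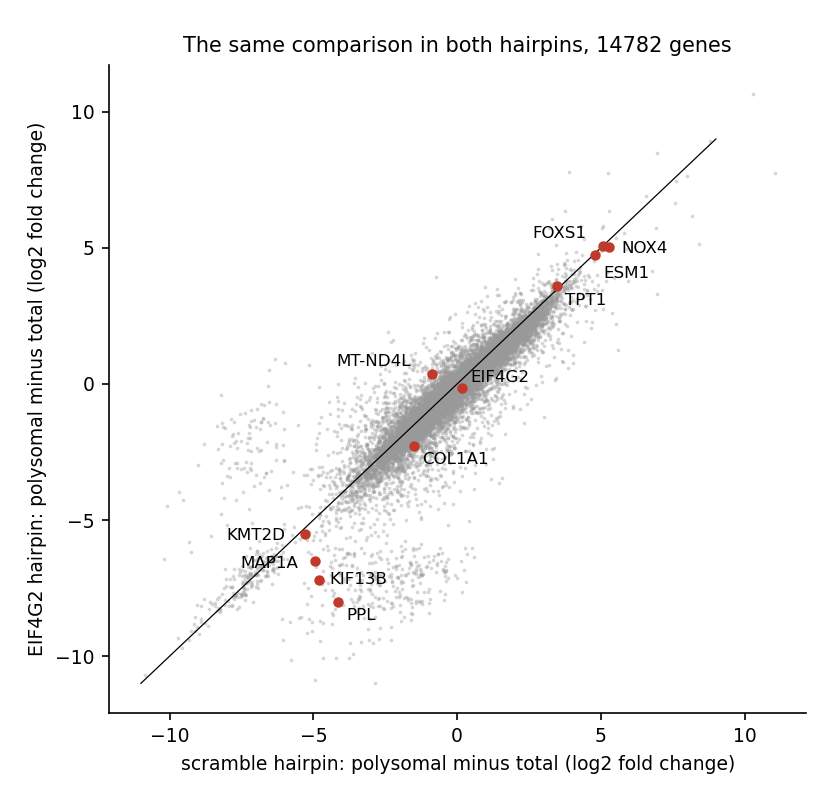
Log2 fold change of polysomal against total RNA in scramble cells (across) and knockdown cells (upward) for 14782 genes; the line marks equal values and red points are genes described in the text. FOXS1, NOX4 and TPT1 lie near the line, and PPL, KIF13B and MAP1A lie below it with edgeR adjusted p-values of the difference over 0.05. The counts behind the other points away from the line were not examined.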

How the data were processed

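RNA was sequenced from total and polysomal fractions after poly(A) enrichment and DNase treatment, as paired-end reads, per the series' design text. The authors deposited 1 table of read counts per gene symbol with a column per library (0 further sample columns). Tools listed in the submitters' processing notes are HISAT2 2.1.0, Trimmomatic 0.36, bcl2fastq 2.19.0, featureCounts with Subread 2.0.1, DESeq2 and R 4.1.2, with the build GRCh38 (hg38). Which annotation and strand setting were used, and how multi-matching reads were counted, was not given in the sources used here, so overlapping genes, antisense pairs and near-identical copies may share or lose counts.

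The 4 knockdown libraries were fitted with TMM scaling and the robust quasi-likelihood test of edgeR 4.0.16 under R 4.3.3, for genes with at least 10 counts in 2 libraries. Benjamini-Hochberg adjustment ran over all 15331 genes, and a gene is called at an adjusted p under 0.05. Standard errors were computed from the log2 fold change and its F statistic. CPM are per effective library size, and the prior count for log2 CPM was 2. Total counts were 18043714 to 23299332 per library. The scramble libraries were fitted in the same way, and the hairpin by fraction term over all 8. Counting intervals are exact at 95%. DESeq2 1.42.0 was an alternative. On simulated counts (15331 genes, 2 against 2 libraries), 32% of 100 genes changed 2-fold and 93% of 100 changed 4-fold were called. There were 11 false calls and 0 in the wrong direction. The simulation changed only these genes and gave polysome and total libraries the same spread. In the data 9451 genes were called and the polysome libraries varied more, so the simulated rates need not hold for them.

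Transcript lengths come from GENCODE 29 and start-site windows from RefSeq's GRCh38.p14 promoters. The members and gene lists were chosen with earlier results of these data known. Genes named are EIF4G2, the 5 given genes, the 10 largest called fold changes per direction among coding genes averaging a log2 CPM of 3 or more, and, of lists described, the most abundant, highest and lowest members; the text names a subset, some genes are not reported here, and others are marked as chosen after their values were seen. After the data were seen, a trend on transcript length was removed first and then replaced by coding length (lowess span 0.3), and the 3 start-site strings were picked from 8 searched. Other alternatives were other scalings and filters, a replicate block, and leaving out each library.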

Additional observations from a re-analysis of the deposited data

How the results depend on the processing

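Over all alternatives run, the count of higher calls ran from 1588 to 4724 and that of lower calls from 3245 to 8590. Without 1 library each, higher calls ran from 2820 to 4549 and lower calls from 3310 to 6040, in place of 4151 and 5300; without total replicate 2 there were 2820 and 3310. Lower calls were 3263, 3294, 3245 and 3269 with the trend removed on coding length, coding length with GC, transcript length or longest coding sequence, which tested 12606 genes. With library totals alone 1588 were higher and 8590 lower. In each fit without 1 library the filter was applied again to the libraries left. This tested 13481 genes without total replicate 1 and 13545 without total replicate 2, in place of 15331. The difference between hairpins had 0 calls, 4 with DESeq2, and from 0 to 1 without 1 library each. Same-numbered libraries of the fractions did not deviate together (r = −0.037), so the numbers were not taken as pairs; the replicate block called 3766 higher, 4727 lower and 0 for the difference between hairpins. No gene called by both changed direction in DESeq2 or in any fit without 1 library; 97 did with library totals and 348 with coding length removed.

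Among values of named genes under alternatives, 1866 kept direction and side of the threshold, 30 lost and 26 gained a call, and 26 changed sign, as did 29 list medians and 5 differences between hairpins. With library totals alone the sign turned for ATP5F1B (−0.51), EEF2 (−0.36), FZD2 (−0.35), HNRNPA1 (−0.52), KRT8 (−0.65), MT-ND4L (−0.66), MT-ND5 (−0.41), P4HB (−0.81), RPL17 (−0.48) and TSC22D1 (−0.87), and for the medians of initiation factors (−0.56), proteasome (−0.089), contractile apparatus (−0.83), TGF-beta signalling (−0.10), upstream reading frames (−0.64), secretory pathway (−0.45), antioxidants (−0.88), selenoproteins (−0.26), sterol synthesis (−0.47), endothelial (−0.65) and epithelial markers (−0.34). With coding length removed it turned for AXL (0.76), CHD9 (2.105), EIF4B (0.012), EIF5A (−0.053), IPO7 (0.27), ITGB1 (0.57), KIF1C (0.17), MT-ND4L (−1.36), NDUFS1 (0.14), PSME4 (0.52), RPL17 (−0.50), TMSB4X (−0.14) and TSC22D1 (−1.15), and for collagen folding (0.47), antioxidants (−0.025), receptors (0.23) and cell cycle (0.15). The cell cycle median was 0.041 with DESeq2, 0.044 with its size factors, 0.0016 with TMM without mitochondrial and ribosomal protein genes, 0.011 with filterByExpr, 0.10 with all 8 libraries, and −0.13 to 0.0095 without 1 library each. The antioxidant median was −0.0056 with no filter and from −0.051 (without total replicate 2) to 0.26 without 1 library each, and the contractile one from −0.0038 (without polysome replicate 2) to 0.38. The endothelial median was −0.65 with no filter, −0.36 with 10 counts in all 4 libraries and from −0.40 (without polysome replicate 1) to 0.62 without 1 library each. Without 1 library each, EIF4G2 ran from −0.41 to 0.086 (without polysome replicate 1), MT-ND4L from −0.12 (without total replicate 1) to 0.85 and TSC22D1 from −0.0065 (without total replicate 2) to 0.24. Of the differences between hairpins, FOXS1 ran from −0.41 (without scramble polysome replicate 2) to 0.64 without 1 library each, below 0 without replicate 2 of any group, and NOX4 from −0.49 to 0.24 (without knockdown total replicate 1). Beyond scaling and length, the cause of these changes was not tested.

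With 2 libraries per group, genes that differ 2-fold were often not called on simulated data, where far fewer genes changed than were called here. No polysomal count was found for 620 genes. Polysomal values rest on libraries that differed more from each other than the total libraries did.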
